A study of Mus musculus with 6 samples.

Results

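The p53 pathway was examined through 34 mouse genes, chosen by name: regulators of p53 and transcripts known as p53 targets in cell cycle arrest, apoptosis, DNA repair and stress metabolism. A gene was measured when at least 1 probe set of the array was annotated to its symbol alone, which held for 33 genes with 55 probe sets, of 12393 genes and 22626 probe sets in all. Trp53, which encodes p53 itself, is not analysed here. The cells were bone marrow erythroblasts, the nucleated precursors of red cells, selected by the transferrin receptor CD71. They came from 3 samples of mice with a transgene for mutant RPS19 (RPS19R62W) and from 3 samples of wild type mice, all of the FVB/N strain, with 1 Affymetrix array each. RPS19 is a protein of the small ribosomal subunit that is often mutated in Diamond-Blackfan anaemia, in which red cell precursors are lost from the marrow. The sources used here do not give the promoter that drives the transgene, the age or sex of the mice, or whether a sample is 1 animal or a pool. The p-values cover the spread between these arrays alone, part of which may be technical.

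The p53 protein is a transcription factor that is held at a low level by the ubiquitin ligase Mdm2 and its partner Mdm4. When ribosome assembly is disturbed, free ribosomal proteins such as Rpl5 and Rpl11 can bind Mdm2, and p53 then accumulates and switches on genes that stop the cell cycle, repair DNA or start apoptosis. In erythroid precursors this response is a well-known candidate for the anaemia of ribosomal protein mutations. The arrays read transcripts, not the p53 protein or its modification.

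All values are log2 signals of the authors' RMA processing, so a difference of 1 is a doubling, and a difference is mutant minus wild type with the SE of a limma fit over all 22626 probe sets. A probe set was called at a Benjamini-Hochberg adjusted p under 0.05. The mutant arrays differed more among themselves than the wild type arrays did: the SD of the difference between a pair of arrays over probe sets was 0.345 to 0.503 among mutant and 0.143 to 0.186 among wild type arrays. All 3 probe sets of Tfrc, which encodes the sort marker CD71, read lower on every mutant array. The brightest read 11.45 to 11.99 on the mutant and 12.13 to 12.15 on the wild type arrays and differed by -0.34 (adjusted p = 0.29). The next read 7.73 to 7.94 on the mutant and 8.90 to 8.97 on the wild type arrays and fell by 1.10 (adjusted p = 0.0039), and the dimmest differed by -0.62 (adjusted p = 0.14). Rps19 read 12.06 to 12.10 on the mutant and 12.06 to 12.13 on the wild type arrays, and whether its probe set also reads the transgene is not known here. Of 17 measured erythroid markers 16 read above the median of all probe sets, and Hba-a1 was dim. Gata1, the leading erythroid transcription factor, read 9.07 to 9.79 on the mutant and 9.28 to 9.36 on the wild type arrays. The mutant mean was higher for 6 of the 17 and lower for 11, and 13 read lowest of all 6 arrays on mutant replicate 1. Hbb-b2 alone was called by limma. It read 9.25, 8.87 and 9.09 on the mutant and 8.13 to 8.54 on the wild type arrays and rose by 0.75 (adjusted p = 0.047, or 0.075 in a fit of 1 probe set per gene). Neutrophil markers such as Elane read 10.71 to 12.40 on the mutant and 11.98 to 12.18 on the wild type arrays. The spiked polyadenylated controls read 10.57 to 12.26 on the mutant and 8.05 to 8.07 on the wild type arrays, and the 3′ actin control exceeded the 5′ control by 1.58 to 1.88 on the mutant and by 1.26 to 1.37 on the wild type arrays. The Y-linked gene Eif2s3y read 8.34 on mutant replicate 3, 2.27 and 2.35 on mutant replicates 1 and 2, and 2.23 to 2.45 in wild type. The female transcript Xist read 5.78 on mutant replicate 3 on its brightest probe set. It read 11.38 and 11.93 on mutant replicates 1 and 2, and 11.96 to 12.07 in wild type. By these transcripts mutant replicate 3 alone reads as male. What part these differences between arrays have in the results below was not tested.

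Few p53 pathway transcripts were called different between mutant and wild type erythroblasts, and few probe sets were called over the whole array. Of the 55 probe sets 2 were called, both higher in the mutant: the brighter probe set of Abhd4 and the probe set of Ei24. That is 3.64% of the members' probe sets, against 2.33% of all probe sets called in either direction, 0.941% higher and 1.39% lower. None of the classical targets passed the test, among them Cdkn1a, Mdm2, Bbc3, Ccng1 and Phlda3. In a second fit with the brightest probe set of each gene, Abhd4 alone was called, 1 of 33 genes or 3.03% against 0.331% of all genes, and Ei24 missed the threshold (adjusted p = 0.064). Both calls were lost when any 1 wild type array or mutant replicate 2 was left out. At an unadjusted p under 0.05 there were 12 of the 55 probe sets, 9 higher and 3 lower, against 19.1% of all probe sets, 8.64% higher and 10.5% lower. By gene, 7 of the 33 genes were higher in the mutant and 0 were lower, against 9.11% higher and 8.3% lower among all genes. The 7 were Ppm1d, Ei24, Ddb2, Tap1, Dcxr, Abhd4 and Pltp. Together with Perp they were also the 8 genes whose mutant arrays all lay above the wild type arrays, 24.2% against 12% of all genes, while Gadd45a alone lay below, against 12.7%. In either direction the groups did not overlap for 24.7% of all genes. The mutant mean was higher for 22 of the 33 genes and for 28 of the 55 probe sets, against 49.1% of all genes and 47.5% of all probe sets. The median difference of the 33 brightest probe sets was 0.06, against -0.0044 over all genes.

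**Figure D1:**
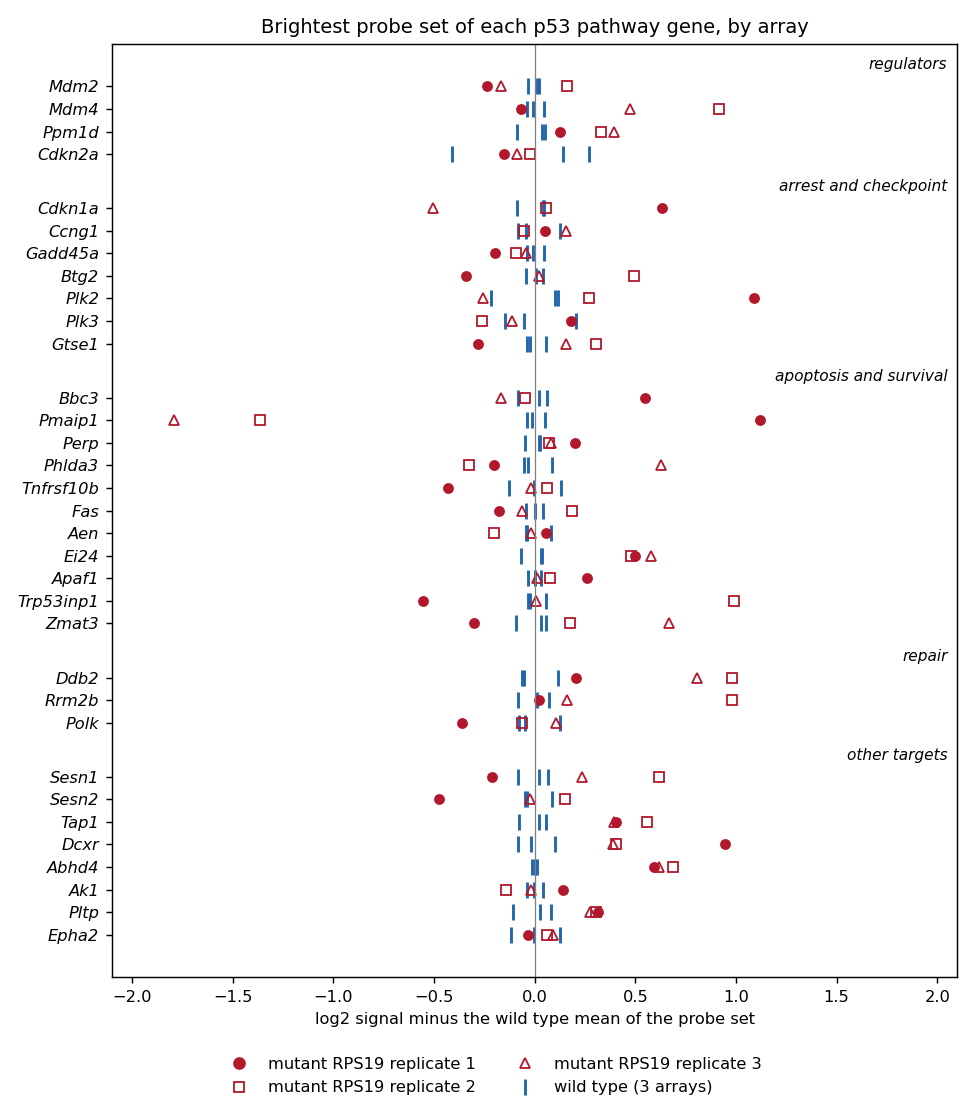
Log2 signal of the brightest probe set of 33 p53 pathway genes on each array, minus the wild type mean of the same probe set; rows are genes grouped by role, red symbols are the 3 mutant RPS19 arrays and blue ticks the 3 wild type arrays. The mutant arrays lie together to the right of the ticks for Ei24, Tap1, Abhd4 and Pltp, and far apart from each other for Pmaip1, Trp53inp1, Plk2 and Cdkn1a.

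Abhd4, a hydrolase of the phospholipid precursors of N-acylethanolamines and a p53 target in mouse cells, was the most clearly raised member. Its brighter probe set read 9.14, 9.23 and 9.16 on mutant replicates 1 to 3, against 8.56, 8.55 and 8.53 on the wild type arrays. All 3 mutant arrays lay above all 3 wild type arrays and close to each other. The rise was 0.63 ± 0.086 (log2, SE), which is 1.55-fold (adjusted p = 0.019, limma). The suffix of this probe set marks probes that may also match other transcripts. The dimmer probe set read 6.74, 6.85 and 6.81 in the mutant and 6.54, 6.41 and 6.20 in the wild type samples, again without overlap, but its difference of 0.42 ± 0.11 was not called (adjusted p = 0.11). Without 1 of the wild type arrays the adjusted p of the brighter probe set was 0.12 to 0.15, with a difference of 0.62 to 0.64, and without mutant replicate 2 it was 0.056. On the mean of both probe sets the difference was 0.52 (adjusted p = 0.060).

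Ei24, an endoplasmic reticulum membrane protein of autophagy first found as an etoposide-induced and p53-induced transcript, read 8.35, 8.33 and 8.43 in the mutant and 7.89, 7.88 and 7.78 in the wild type samples. Here too the groups did not overlap and the mutant arrays were close together. The rise was 0.52 ± 0.090, or 1.43-fold (adjusted p = 0.037, limma). The adjusted p was 0.17 to 0.20 without 1 of the wild type arrays, 0.088 without mutant replicate 2 and 0.058 in a test per probe set without limma's shared variance.

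**Figure D2:**
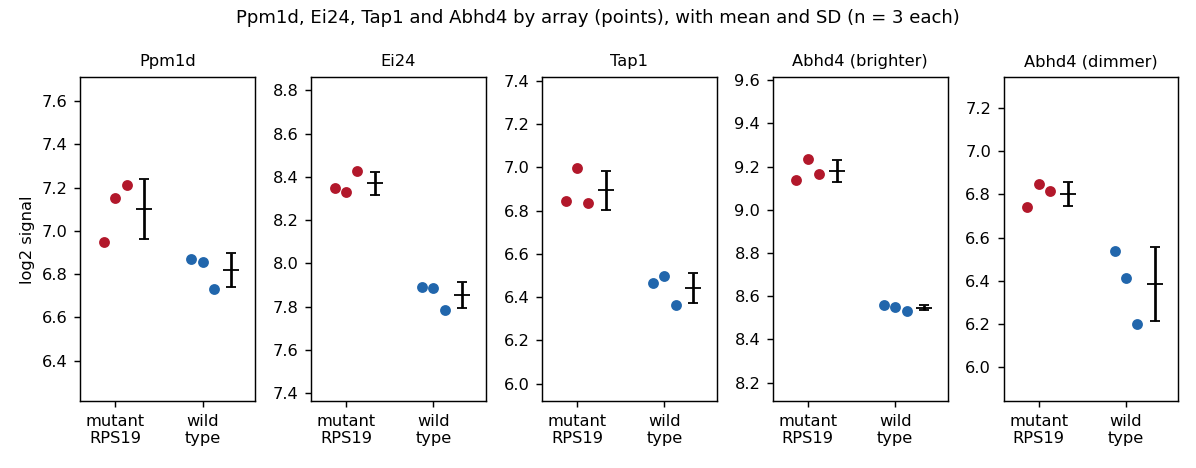
Log2 signal of the single probe set of Ppm1d, the probe set of Ei24, the brightest probe set of Tap1 and both probe sets of Abhd4; each point is an array, mutant RPS19 in red on the left and wild type in blue on the right of each panel, and bars give the mean and SD of 3 arrays. All panels span the same height on the log2 scale without starting at 0, and every mutant point lies above every wild type point. The genes shown are among the 8 members whose brightest probe sets separate in this way, as 12% of all genes do. Tap1 and Ppm1d were not called, and the dimmer Tap1 probe sets are not shown.

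Among the regulators, 0 of 6 probe sets of 4 measured genes were called, and 1 had an unadjusted p under 0.05. Of all probe sets these shares were 2.33% and 19.1%. Mdm2, the ligase that marks p53 for degradation and itself a p53 target, read 7.62, 8.01 and 7.69 in the mutant and 7.88, 7.87 and 7.82 in the wild type samples. Mutant replicate 2 lay above and the other mutant arrays below the wild type arrays. Mutant minus wild type came to -0.08, with -0.37 to 0.21 as its 95% confidence interval (adjusted p = 0.78), and the dimmer Mdm2 probe set differed by -0.22 (-0.62 to 0.18). Mdm4, which blocks the activation domain of p53, read 6.82, 7.80 and 7.36 in the mutant and 6.93, 6.88 and 6.84 in the wild type samples. Mutant replicates 2 and 3 were high and replicate 1 was not, and the difference of 0.44 ± 0.23 was not called (adjusted p = 0.35). Without replicate 1 it was 0.70 (adjusted p = 0.023). That fit had 2 mutant arrays and called 2544 of all 22626 probe sets, against 528 with all arrays. A dimmer Mdm4 probe set differed by -0.03. Ppm1d, the phosphatase Wip1 that dampens the p53 response, read 6.95, 7.15 and 7.21 in the mutant and 6.87, 6.86 and 6.73 in the wild type samples. The groups did not overlap, and the difference was 0.28 ± 0.11 (adjusted p = 0.21). Cdkn2a, which encodes the Mdm2 inhibitor Arf and a Cdk inhibitor, read low in both groups, at 3.31 ± 0.065 in the mutant and 3.40 ± 0.36 in the wild type samples (SD, n = 3 each).

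Of the 7 arrest and checkpoint genes with 11 probe sets, 0 were called by limma, and 2 probe sets had an unadjusted p under 0.05, both lower in the mutant. Among all probe sets 19.1% had such a p, and 10.5% had it with a lower value in the mutant. Cdkn1a, which encodes the Cdk inhibitor p21 and is the standard readout of p53 activity, read 6.94, 6.36 and 5.80 in the mutant and 6.35, 6.35 and 6.22 in the wild type samples. Mutant replicate 1 was the highest of the 6 arrays, replicate 3 the lowest and replicate 2 level with wild type. The difference was 0.06 with a 95% confidence interval of -0.54 to 0.66 (adjusted p = 0.93), and it turned to -0.22 without mutant replicate 1. The dimmer Cdkn1a probe set showed the same order of mutant arrays, at 6.43, 5.67 and 5.38 against 5.87, 5.97 and 5.78 in wild type, and differed by -0.05.

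Ccng1, the p53-induced cyclin G1 that guides a phosphatase to Mdm2, read 8.51, 8.40 and 8.61 in the mutant and 8.41, 8.37 and 8.58 in the wild type samples. These values overlapped, and the difference was 0.05 (-0.20 to 0.30). The dimmest of its 3 probe sets lay below every wild type array in all mutant arrays (-0.27 ± 0.10, adjusted p = 0.20). Btg2, an antiproliferative factor that promotes deadenylation of messenger RNA, differed by 0.06 ± 0.20 on the brighter probe set, and mutant replicate 2 alone was high at 8.48 against 7.95 to 8.03 in wild type. Its second probe set read 7.84, 7.81 and 7.80 in the mutant and 8.16, 8.20 and 8.09 in the wild type samples. These groups did not overlap, and the difference of -0.33 ± 0.087 had an adjusted p of 0.097. The polo-like kinase genes Plk2 and Plk3 differed by 0.37 ± 0.31 and -0.07 ± 0.15, Gadd45a, a growth arrest and DNA damage inducible gene, by -0.11 ± 0.092 and Gtse1, a microtubule-binding protein that moves p53 out of the nucleus, by 0.06 ± 0.16. For Plk2 the mutant arrays read 5.88, 5.06 and 4.54 and the wild type arrays 4.91, 4.58 and 4.90, with replicate 1 high and replicate 3 low.

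The apoptosis group held 11 genes with 16 probe sets, of which the Ei24 probe set was the only one called. That is 6.25%, against 2.33% of all probe sets. Bbc3, the BH3-only protein Puma, read 6.17, 5.58 and 5.45 in the mutant and 5.54, 5.68 and 5.64 in the wild type samples. Mutant replicate 1 was high and replicate 3 low, and the difference was 0.11 (95% confidence interval -0.32 to 0.55). Pmaip1, the BH3-only protein Noxa, had the widest spread of all members, with 6.26, 3.78 and 3.35 in the mutant and 5.13, 5.11 and 5.19 in the wild type samples. The mutant arrays covered 2.91 on the log2 scale, and the wild type arrays 0.087. Replicate 1 lay above and replicates 2 and 3 far below wild type, so the difference of -0.68 ± 0.67 was not called (adjusted p = 0.65). Without mutant replicate 1 the difference was -1.58 (adjusted p = 0.0021), in the fit with 2 mutant arrays. It called 2544 of all probe sets, against 528 with all arrays.

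Phlda3, a repressor of the survival kinase Akt, read 5.75, 5.63 and 6.58 in the mutant and 5.90, 6.04 and 5.92 in the wild type samples, with mutant replicate 3 alone high, and differed by 0.03 (-0.52 to 0.59). Trp53inp1, a stress protein that promotes autophagy and apoptosis, read 7.54, 9.09 and 8.11 in the mutant and 8.15, 8.07 and 8.07 in the wild type samples. Replicate 2 was high, replicate 1 low, and the difference was 0.15 ± 0.34. Zmat3, an RNA-binding zinc finger protein, differed by 0.18 ± 0.22, with replicate 3 high at 5.74 and replicate 1 low at 4.77 against 4.99 to 5.13 in wild type. Apaf1, the scaffold of the apoptosome, differed by 0.12 ± 0.10 on its brighter and by -0.24 ± 0.17 on its dimmer probe set. Aen, a nuclease that enhances apoptosis, differed by -0.05 ± 0.10 on its brightest probe set, while the dimmest of 3 lay below wild type in every mutant array (-0.36 ± 0.091, adjusted p = 0.089). The death receptor genes Tnfrsf10b and Fas and the membrane protein gene Perp read low in both groups, with mutant means of 3.63, 2.88 and 2.63 and wild type means of 3.76, 2.90 and 2.52, below the median of 5.37 over all probe sets. The arrays carry no detection call here, so it cannot be told whether these 3 transcripts were present.

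The repair group held Ddb2, Rrm2b and Polk, with 5 probe sets and 0 called by limma. Of these probe sets 1 had an unadjusted p under 0.05 and was higher in the mutant. Among all probe sets 19.1% had such a p, and 8.64% were higher. Ddb2, which recognises ultraviolet damage in nucleotide excision repair, read 6.28, 7.05 and 6.88 in the mutant and 6.19, 6.02 and 6.01 in the wild type samples. All mutant arrays lay above wild type, replicate 1 only just, and the difference of 0.66 ± 0.20 was the largest positive one among the members' brightest probe sets, but it was not called (adjusted p = 0.13). It was 0.89 without mutant replicate 1 (adjusted p = 0.0050), in the fit with 2 mutant arrays. This fit called 2544 of all probe sets, against 528 with all arrays. The dimmer Ddb2 probe set read 5.65, 6.60 and 6.26 against 6.11, 5.92 and 5.91, with replicate 1 below wild type, and differed by 0.19 ± 0.23. Rrm2b, the p53-inducible subunit of ribonucleotide reductase, read 6.36, 7.32 and 6.50 in the mutant and 6.26, 6.36 and 6.41 in the wild type samples, so that its difference of 0.39 ± 0.24 (adjusted p = 0.44) came with replicate 2 alone well above wild type. Polk, a translesion DNA polymerase, differed by -0.11 ± 0.14 on its brighter and -0.06 ± 0.12 on its dimmer probe set.

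The remaining 8 genes act in metabolism, antigen transport and signalling. On the brightest probe set 4 of these genes were higher in the mutant on every array. Beside Abhd4 these were Tap1, Dcxr and Pltp. That is 50%, against 12% of all genes, and 24.7% of all genes did not overlap in either direction. Tap1, a subunit of the transporter that carries peptides to MHC class I molecules, read 6.85, 6.998 and 6.84 in the mutant and 6.46, 6.50 and 6.36 in the wild type samples on its brightest probe set, without overlap. The difference of 0.45 ± 0.097 had an adjusted p of 0.061. The other 3 Tap1 probe sets were dim, at 2.28 to 4.09 in the mutant and 2.28 to 4.35 in the wild type means, and differed by -0.26, -0.04 and 0.0022. Dcxr, a reductase of dicarbonyls and xylulose, read 6.63, 6.09 and 6.08 in the mutant and 5.79, 5.61 and 5.67 in the wild type samples, with replicate 1 the highest, and differed by 0.58 ± 0.16 (adjusted p = 0.12). Pltp, the phospholipid transfer protein, read 6.36, 6.35 and 6.32 in the mutant and 5.93, 6.07 and 6.13 in the wild type samples, a difference of 0.30 ± 0.094 (adjusted p = 0.15), while its dimmer probe set differed by -0.04.

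The sestrins, stress-induced inhibitors of mTORC1, did not pass. The brightest Sesn1 probe set read 8.02, 8.85 and 8.47 in the mutant and 8.30, 8.25 and 8.15 in the wild type samples, with replicate 1 below and the other mutant arrays above wild type, and differed by 0.21 ± 0.20. A second Sesn1 probe set differed by 0.56 ± 0.19 (adjusted p = 0.17) and the dimmest by 0.15 ± 0.23. Sesn2 differed by -0.12 ± 0.16 and -0.26 ± 0.16 on its 2 probe sets. The adenylate kinase gene Ak1 differed by -0.01 and the ephrin receptor gene Epha2 by 0.04.

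**Figure D3:**
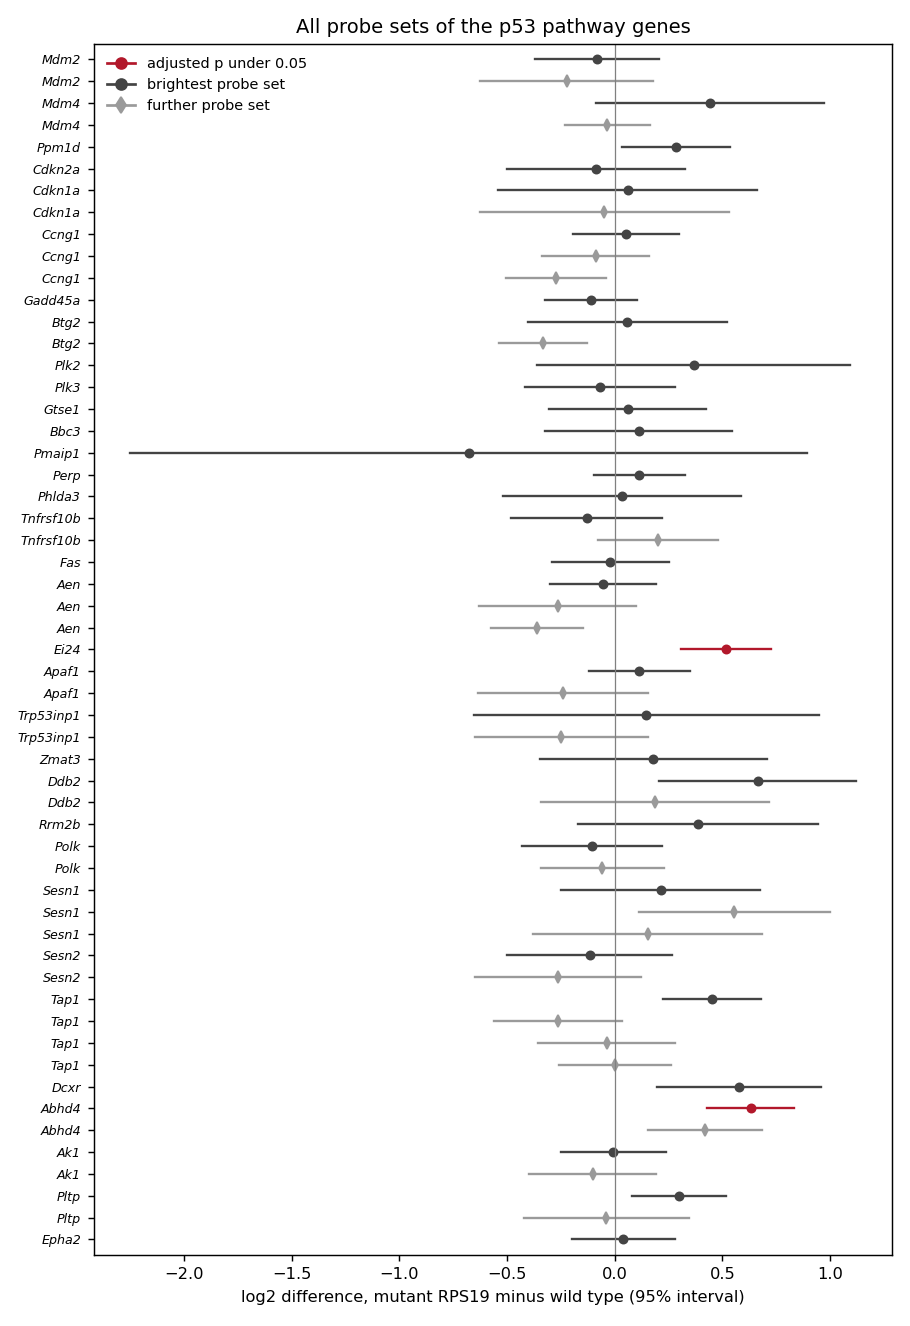
Log2 difference, mutant RPS19 minus wild type, with its 95% confidence interval, for all 55 probe sets of 33 p53 pathway genes in the order of their roles; circles are the brightest and diamonds the further probe sets of a gene, and red marks an adjusted p under 0.05. The red intervals of Ei24 and Abhd4 lie above 0, and the interval of Pmaip1, -2.25 to 0.89, is the widest.

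Probe sets of 1 gene often disagreed in sign. Of the 17 genes with more than 1 probe set, 9 had probe sets of opposite sign: Apaf1, Btg2, Ccng1, Cdkn1a, Mdm4, Pltp, Tap1, Tnfrsf10b and Trp53inp1. Both probe sets of Abhd4, both of Ddb2 and all 3 of Sesn1 were higher in the mutant. The direction given for a gene with opposite probe sets holds for the brightest of them only.

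Many members differed between the mutant arrays. For 15 of 33 genes, or 45.5% against 33.6% of all genes, the mutant arrays lay on both sides of the wild type arrays. The median range over the 3 mutant arrays was 0.47 for the members and 0.34 for all genes, and over the wild type arrays 0.14 and 0.17. On mutant replicate 2, 21 members lay above all wild type arrays and 6 below, on replicate 3 the counts were 15 and 7, and on replicate 1 they were 14 and 13. Among all genes the shares above wild type were 35.5%, 38.9% and 34.8% on replicates 2, 3 and 1, and the shares below were 38.4%, 33.3% and 41.3%. Among the members the shares above were 63.6%, 45.5% and 42.4% and the shares below 18.2%, 21.2% and 39.4%. Leaving out mutant replicate 1 raised the count of called member probe sets to 9 of 55, of 2544 called among all probe sets. The 9 were Mdm4, Ei24, Ddb2, 1 of the dimmer Sesn1 probe sets, Tap1, Dcxr and Abhd4, which were higher, and Pmaip1 and the dimmer Apaf1 probe set, which were lower.

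Markers of other marrow cells also differed between the mutant arrays. The mean over 12 measured neutrophil markers of 15 listed was 10.98, 9.75 and 9.21 on mutant replicates 1 to 3 and 10.23 to 10.34 on the wild type arrays, and all 12 read highest of all arrays on mutant replicate 1 and lowest on replicate 3. For 7 measured eosinophil, basophil and mast cell markers of 9 the mean was 7.70, 6.01 and 5.09 on the mutant and 6.18 to 6.38 on the wild type arrays. Pmaip1, Plk2, Cdkn1a and Bbc3 were highest on mutant replicate 1 and lowest on replicate 3. Among the mutant arrays Dcxr, Apaf1 and Pltp had this order too, on their brightest probe sets. The mean over 14 measured B cell markers of 15 was 6.18, 7.94 and 6.87 on the mutant and 6.25 to 6.31 on the wild type arrays, and 13 of the 14 read highest on replicate 2. Trp53inp1, Mdm4, Rrm2b, Sesn1 and Btg2 were also highest on replicate 2, as was Ddb2. Among the mutant arrays so were Sesn2, Gtse1, Tnfrsf10b, Mdm2, Fas, Tap1, Cdkn2a and Abhd4, on their brightest probe sets. These members were sorted by their own order of arrays, and the share of all genes with each order was not counted. Their likeness to the marker lists is therefore no test. The mean over 17 measured erythroid markers of 22 was 9.30, 9.97 and 10.04 on the mutant and 9.81 to 9.87 on the wild type arrays. The means of another pair of lists lay on one side of wild type on all 3 mutant arrays, as Ei24, Abhd4, Pltp and further members did. The mean over 15 measured monocyte and macrophage markers of 16 was 6.31, 6.16 and 5.65 on the mutant and 6.34 to 6.44 on the wild type arrays, with a lower mutant mean for 14 of the 15 and 0 called by limma. The mean over 9 measured megakaryocyte markers of 11 was 5.64, 5.14 and 5.19 on the mutant and 4.98 to 5.06 on the wild type arrays. The mutant mean was higher for 5 of the 9 and lower for 4, and Vwf alone was called. Vwf read 5.44, 6.10 and 6.12 on the mutant and 4.36 to 4.48 on the wild type arrays. No other of these megakaryocyte markers lay above wild type on every mutant array. T and NK cell markers averaged 4.59 to 4.77 on the mutant and 4.63 to 4.70 on the wild type arrays. Progenitor markers averaged 5.82, 5.34 and 4.97 on mutant replicates 1 to 3 and 5.35 to 5.41 on the wild type arrays. The part of these cells in the members' values was not tested, and in sorted bulk samples more cells of a type and more RNA per cell cannot be told apart. Ei24, Abhd4 and Pltp had the smallest ranges over the 3 mutant arrays among the members' brightest probe sets, at 0.10, 0.095 and 0.043. The dimmer Pltp probe set read 4.14, 4.60 and 4.12 on these arrays. Whether these ranges bear on the part of other cells was not tested.

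**Figure D4:**
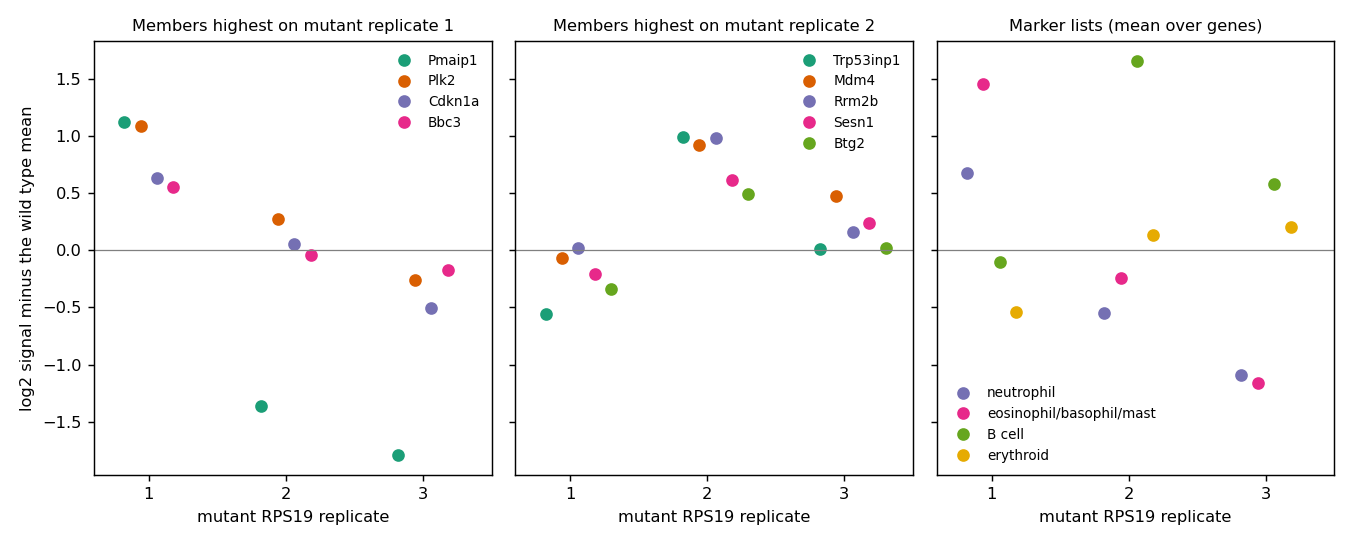
Log2 signal on each mutant RPS19 array minus the wild type mean, for 4 members highest on mutant replicate 1 (left), 5 members highest on mutant replicate 2 (middle) and the mean of 4 marker lists (right); each point is 1 gene or list on 1 array, and 0 is the wild type mean. Pmaip1 stands at 1.12, -1.36 and -1.79 on replicates 1 to 3, and the B cell markers are highest on replicate 2. The members were picked by their own order of arrays, so their likeness to the lists is no test.

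Promoter sequences were looked at for matches to the p53 response element, which is built from pairs of a 10-base motif, the p53 decamer, each with a core of C, A or T, A or T, and G. RefSeq windows of the GRCm38.p6 build, from 250 bases before to 50 bases after a transcript start, were found for 26 of the 33 measured genes, 39 windows in all. As a pattern the motif is the same on both strands, although a single match need not be. A match was present in 12 of the 39 windows, or 30.8%, against 8.36% of 32851 windows of all genes. These 12 windows belong to 11 genes, as overlapping windows of Aen share 1 decamer. A pair of decamers with at most 13 bases between them was present in 1 member window, that of Cdkn1a, against 0.0731% of all windows. The members were chosen as known p53 regulators and targets, so these shares are no test of them. The 3 windows shown are those of the called genes Ei24 and Abhd4 that hold a decamer and that of Cdkn1a, with the decamers in capitals. They lie at chr9:36797285-36797584 on the minus strand (Ei24), chr14:54259033-54259332 on the plus strand (Abhd4, the downstream one of its windows) and chr17:29090729-29091028 on the plus strand (Cdkn1a, the upstream one of its windows). The upstream window of Abhd4 and the downstream window of Cdkn1a hold no decamer.
Ei24: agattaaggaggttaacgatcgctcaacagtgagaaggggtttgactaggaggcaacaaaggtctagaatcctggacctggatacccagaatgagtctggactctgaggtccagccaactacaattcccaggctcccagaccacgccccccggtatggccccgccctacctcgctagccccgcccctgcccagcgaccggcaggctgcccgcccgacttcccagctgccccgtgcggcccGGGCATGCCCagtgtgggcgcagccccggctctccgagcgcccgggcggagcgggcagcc
Abhd4: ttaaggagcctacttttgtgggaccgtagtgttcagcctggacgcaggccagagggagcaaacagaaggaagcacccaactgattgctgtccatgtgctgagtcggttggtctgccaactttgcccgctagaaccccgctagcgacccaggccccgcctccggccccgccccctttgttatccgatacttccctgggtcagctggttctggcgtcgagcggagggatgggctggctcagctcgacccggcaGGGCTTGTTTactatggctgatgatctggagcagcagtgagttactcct
Cdkn1a: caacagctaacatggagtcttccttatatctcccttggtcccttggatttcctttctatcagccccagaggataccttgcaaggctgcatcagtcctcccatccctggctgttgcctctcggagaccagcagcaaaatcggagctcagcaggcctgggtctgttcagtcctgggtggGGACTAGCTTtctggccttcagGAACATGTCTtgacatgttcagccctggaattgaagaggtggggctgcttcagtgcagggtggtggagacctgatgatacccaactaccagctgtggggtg

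The decamer begins 10 bases before the start in Ei24. In Cdkn1a the decamers of the pair begin 73 and 51 bases before the upstream start. The 10 bases right after the second Cdkn1a decamer differ from the motif in their first base only and are not marked. Single decamers in the other member windows were these, shown because they mark which further members carry a match.
Aen: GGGCTTGTCC
Ccng1: GGGCAAGCCT
Gadd45a: GGGCTAGCCC
Gtse1: GGGCTTGCCT
Mdm2: GAACTTGCCT
Polk: GAACTAGCCT
Ppm1d: GAGCTTGCTC
Sesn1: AAGCTTGTTT

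The windows with a decamer belong to called members (Ei24, Abhd4) and to members that were not called. The latter were Cdkn1a, Mdm2, Ccng1, Aen, Gadd45a, Gtse1, Polk, Ppm1d and Sesn1. The windows found for Tap1, Dcxr and Pltp hold no decamer, which says only that these letters are not in these windows. No binding of p53 was measured.

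Other genes of the pathway were read from a list of 96 symbols that are no members, of which 75 were measured with 127 probe sets. Of these probe sets 6 were called, 3 higher and 3 lower in the mutant, which is 4.72% against 2.33% of all probe sets. In the fit of the brightest probe set per gene 0 of the 75 were called by limma, and 16 had an unadjusted p under 0.05, 6 higher and 10 lower, against 17.4% of all genes. Their median difference was 0.08. Rpl11, the ribosomal protein that binds Mdm2, read 11.97, 11.85 and 11.90 in the mutant and 12.44, 12.52 and 12.43 in the wild type samples and fell by 0.56 ± 0.090 (adjusted p = 0.031, or 0.057 in the gene fit). Usp7, a deubiquitinase of Mdm2 and p53, read 7.78, 7.83 and 7.55 in the mutant and 6.92, 6.88 and 6.99 in the wild type samples on a dimmer probe set, which rose by 0.79 ± 0.11 (adjusted p = 0.019). Its brightest probe set differed by 0.22 ± 0.14 (adjusted p = 0.43), and there the groups overlapped. Trp53bp1, a p53-binding protein of the response to DNA breaks, rose by 0.74 ± 0.12 on a dimmer probe set (adjusted p = 0.033), and its brightest probe set differed by 0.45 ± 0.12 (adjusted p = 0.099).

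Casp9, the initiator caspase of the apoptosome, fell by 1.004 ± 0.13 on a dimmer probe set (adjusted p = 0.019), with 4.04, 4.44 and 4.37 in the mutant and 5.35, 5.38 and 5.14 in the wild type samples. Its brightest probe set differed by -0.46 ± 0.15 (adjusted p = 0.15). Mxd4, a Max partner that opposes Myc, rose by 0.80 ± 0.14 on its brightest probe set (adjusted p = 0.035), and its dimmer probe sets differed by 0.096 to 0.22 without being called. Txnip, the thioredoxin-interacting protein, fell by 0.63 ± 0.12 on a dimmer probe set (adjusted p = 0.044). Its brightest probe set had the opposite sign, at 0.12 ± 0.14 (adjusted p = 0.71). For the 6 called probe sets every mutant array lay on one side of the wild type arrays. The next lowest p-values in the gene fit were those of the deacetylase gene Sirt1, at 0.41 ± 0.097, Gadd45g, at 0.52 ± 0.14, and the replication clamp gene Pcna, at -0.36 ± 0.096, none of them called.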

How the data were processed

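The authors' deposited table holds log2 signals of 22690 probe sets on 6 arrays. Per the submitters' processing notes GCOS and RMA in Affymetrix Expression Console were used. RMA corrects background, quantile normalises and summarises probes. The sources used here name no versions and do not say which arrays entered the normalisation. Samples were grouped by the genotype in the labels. From the table, 64 control probe sets were left out and 22626 were fitted with limma 3.58.1 in R 4.3.3 (lmFit, eBayes, two-sided, no covariate, Benjamini-Hochberg). A second fit used 12393 genes, each by its brightest probe set over all arrays. Symbols came from the platform annotation, where 20380 probe sets have 1 symbol, 691 several and 1555 none. Genes carry no coordinates, since the array's build is not named. Promoter windows came from RefSeq. Members, lists and tests were chosen with earlier results of these data known, and no p is adjusted over a list alone. The naming rule took every member, with values on each array for called members, Mdm2, Cdkn1a, Bbc3, Ccng1 and Phlda3, and of the other pathway genes the called ones and up to 6 more by lowest p; array values of further members were added after they were seen. The fit was tested on simulated data with the same SD in both groups, unlike these arrays. The planted differences were larger than those of the called members, so this test does not bear on their calls. Alternatives covered the variance prior, array weights, normalisation, level filters, a replicate block, a test without shared variance, the probe set per gene, the threshold and leaving out each array. With 3 arrays a group, precision is limited by their number. Python 3.11.15, pandas 2.3.3 and matplotlib 3.10.9 served for promoters and plots.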

Additional observations from a re-analysis of the deposited data

How the results depend on the processing

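The calls depended on single arrays. The 2 member probe sets called, Abhd4 and Ei24, stayed called under a variance prior with a trend or made robust, array weights, quantile normalisation without controls, median centring, both level filters and leaving out mutant replicate 1 or 3. With the replicate number as a block, 0 member probe sets (11 at an unadjusted p under 0.05) and 0 member genes (6) were called by limma. Same-numbered arrays deviated together only weakly (correlations 0.051, 0.028 and 0.055), so the numbers were not taken to pair the samples, although each mutant array correlated best with its own number. The test without shared variance called 1 probe set and 0 genes of the members (10 and 6 unadjusted), and averaging the probe sets within each gene left 0 member genes called. Array weights called 10 member probe sets, 6 member genes and 7 other pathway genes, but also 2667 of all 22626 probe sets and 1130 of all 12393 genes, against 528 and 41 without weights. A level above the median gave 2 member genes and 2 other pathway genes, of 133 called among 6754. With the trend 1 other pathway gene was called. At an adjusted p under 0.10 there were 5 member probe sets, 3 member genes and 2 other pathway genes, with 1386 probe sets and 383 genes in all, and unadjusted 12, 7 and 16, with 4327 and 2158 in all. Leaving out each array in turn gave 0 to 9 member probe sets, 0 to 7 member genes and 0 to 9 other pathway genes. The highest counts came without mutant replicate 1, where 2544 probe sets and 1182 genes were called in all.

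Small differences of the members changed sign, with probe sets ranked by brightness within a gene. With array weights these became Mdm2 (brightest) 0.022, Cdkn1a (brightest) -0.031, Bbc3 -0.015, Phlda3 -0.11, Tnfrsf10b (brightest) 0.016, Fas 0.089, Sesn2 (brightest) 0.052, Tap1 (rank 4) -0.031, Pltp (rank 2) 0.015. With quantile normalisation without controls they became Fas 0.014, Tap1 (rank 4) -0.0028, Ak1 (brightest) 0.033, Pltp (rank 2) 0.0062. Leaving out each array in turn spanned these values: Plk3 -0.19 to 0.035, Fas -0.12 to 0.059, Polk (rank 2) -0.16 to 0.026, Tap1 (rank 3) -0.15 to 0.050, Ak1 (brightest) -0.080 to 0.063, Cdkn1a (rank 2) -0.35 to 0.17, Pltp (rank 2) -0.20 to 0.066, Epha2 -0.019 to 0.10, Cdkn2a -0.29 to 0.048, Tap1 (rank 4) -0.089 to 0.063, Cdkn1a (brightest) -0.22 to 0.34, Bbc3 -0.11 to 0.25, Tnfrsf10b (brightest) -0.22 to 0.021, Polk (brightest) -0.21 to 0.022, Sesn2 (brightest) -0.25 to 0.065, Ak1 (rank 2) -0.18 to 0.0054, Btg2 (brightest) -0.16 to 0.26, Gtse1 -0.063 to 0.23, Aen (brightest) -0.11 to 0.019, Trp53inp1 (brightest) -0.27 to 0.50, Ddb2 (rank 2) -0.029 to 0.45, Sesn1 (rank 3) -0.022 to 0.43, Ccng1 (brightest) -0.0015 to 0.11, Phlda3 -0.26 to 0.21, Zmat3 -0.064 to 0.42. The cause of these changes was not tested. No detection calls are held in the table, so dim probe sets have no stated background, and 3 arrays a group limit what can be called.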
